A study of Homo sapiens with 8 samples.

Results

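The genes described here encode the main families of pre-mRNA splicing factors, measured in HCT116 p53+/+ cells, an established human colon cancer line with intact p53. They were chosen by gene symbol alone: SR proteins (SRSF), heterogeneous nuclear ribonucleoproteins (HNRNP), small nuclear ribonucleoprotein genes (SNRP), subunits of splicing factor 3 (SF3A and SF3B) and U2AF1 and U2AF2, with pseudogene symbols left out. The rule found 60 of the 58302 genes in the table. Cells received 1 µM MANIO, a compound named in the labels by this code only, or its solvent DMSO, for 24 hours, with 4 biological replicates in each group. Both groups are the same line, so the comparison covers a single tumour line, dose and time.

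Introns are removed by the spliceosome, which is built on each intron from small nuclear ribonucleoproteins (snRNPs) and many further proteins. U1 snRNP marks the start of the intron, the U2AF pair binds near its end, and the U2 snRNP with its SF3A and SF3B complexes settles on the branch point. SR proteins mostly favour, and hnRNP proteins often oppose, the use of the exons they bind, so the balance of both families shapes alternative splicing. Many SR and hnRNP genes also limit their own mRNA through exons that lead to decay of the message.

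Total counts ranged from 29270359 to 32509020 in the MANIO libraries and from 27945196 to 31750628 in the DMSO libraries. CDKN1A, the p53 target that encodes the cell cycle inhibitor p21, averaged 1402 ± 97.1 CPM in MANIO and 260.4 ± 24.0 CPM in DMSO libraries (SD, n = 4 each), where CPM is counts per 1e6 counts after TMM scaling. MDM2, which encodes the ubiquitin ligase of p53, averaged 715 ± 52.7 CPM in MANIO and 199 ± 5.99 CPM in DMSO libraries. The 6 epithelial markers summed to 3210 to 3660 CPM in MANIO and 2590 to 2890 CPM in DMSO libraries, most of it KRT8 and KRT18. Of the same list, KRT20 reached at most 1.88 CPM (MANIO replicate 4) and VIL1 at most 0.335 CPM (MANIO replicate 2). The 6 immune markers summed to at most 0.538 CPM in MANIO and 0.223 CPM in DMSO. The 4 endothelial markers summed to 0.396 to 0.57 CPM in MANIO and 1.05 to 1.31 CPM in DMSO. The 6 fibroblast markers summed to 39.5 to 47.7 CPM in MANIO and 21.6 to 26.5 CPM in DMSO, nearly all of it COL1A1, with LUM at 0 in every library. Mitochondrial genes took 6.70 to 7.62% of counts in MANIO libraries, against 7.48% in DMSO replicate 1 and 4.82 to 5.21% in the other 3 DMSO libraries. The part of these differences in the results below was not tested.

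Most splicing factor genes were lower in MANIO-treated cells. Of the 54 with enough counts to be tested, 36 fell (66.7%), 6 rose (11.1%) and 12 did not pass the threshold in the quasi-likelihood test of edgeR, with Benjamini-Hochberg adjusted p-values under 0.05 over all genes called. Over all 15712 genes tested, 26.8% fell and 27.8% rose, 54.6% in either direction. The median log2 fold change (MANIO over DMSO) was -0.27 over the 54 genes and 0.00 over all genes. The changes were moderate: the log2 fold changes spanned -0.71 for HNRNPR to 0.59 for SRSF8, and none reached 2-fold. The groups of 4 libraries did not overlap for 39 of the 54 genes (72.2%), against 48.3% of all genes. A further comparison took the 4413 tested genes at least as abundant as all these genes but HNRNPA1L2 and U2AF1, a bound set after the values were seen. Of these 4413 genes, 34.3% fell and 24.8% rose, with a median of -0.04, and the groups did not overlap for 53%. In bulk RNA, less of a message per cell and fewer cells that carry it cannot be told apart.

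**Figure D1:**
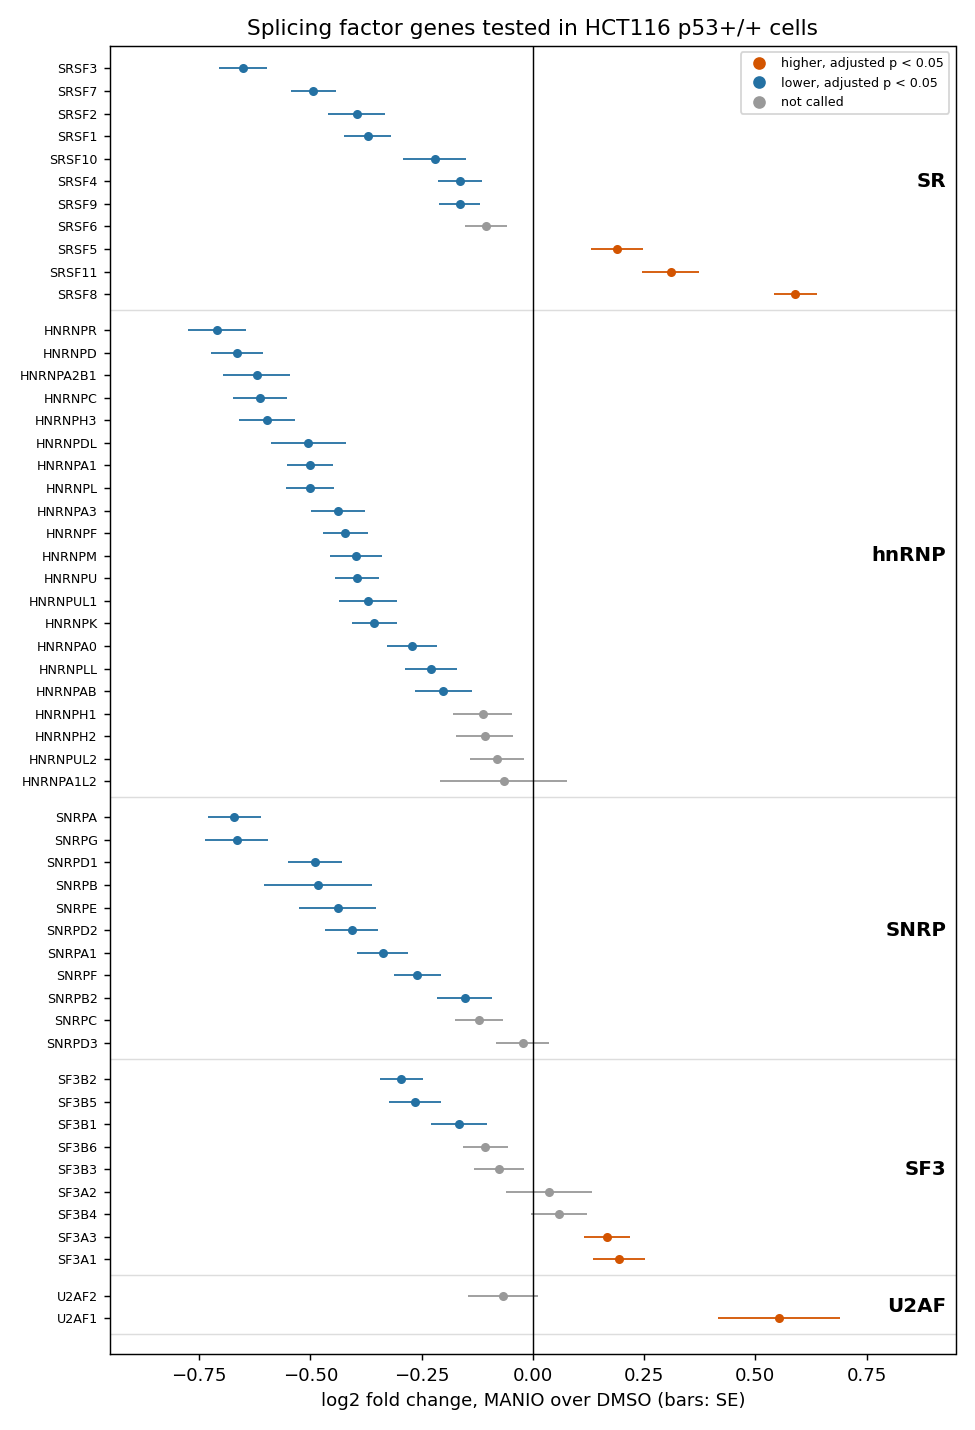
Log2 fold changes of the 54 tested splicing factor genes, MANIO over DMSO, by family (points: edgeR estimate; bars: SE; 4 libraries in each group). No hnRNP or SNRP gene was called higher, while SR and SF3 genes were called on both sides of 0.

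Of 21 tested hnRNP genes, 17 fell and 0 rose, with a median log2 fold change of -0.40. Of 11 SNRP genes, 9 fell and 0 rose, with a median of -0.41. Of 11 SR genes, 7 fell and 3 rose, with a median of -0.16, and of 9 SF3 genes, 3 fell and 2 rose, with a median of -0.08. U2AF1 rose, and U2AF2 did not pass. No hnRNP or SNRP gene rose under any of the 14 other settings tried. Among all genes tested, 26.8% fell and 27.8% rose. The difference between families was not tested.

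As a share of all counts in a library, these 60 genes took 1.47 ± 0.0494% in MANIO and 1.83 ± 0.0674% in DMSO libraries (SD, n = 4 each). The hnRNP genes held most of it, with 0.859 ± 0.0397% in MANIO and 1.15 ± 0.0556% in DMSO. SR genes took 0.270 ± 0.0107% in MANIO and 0.305 ± 0.0110% in DMSO. The plot of shares by class shows the groups apart in each of the 4 classes drawn. SNRP genes took 0.116 ± 0.000998% in MANIO and 0.146 ± 0.00410% in DMSO. SF3 genes took 0.198 ± 0.000826% in MANIO and 0.205 ± 0.00441% in DMSO. The U2AF pair took 0.0276 ± 0.00205% in MANIO and 0.0282 ± 0.00364% in DMSO, and its groups overlapped.

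**Figure D2:**
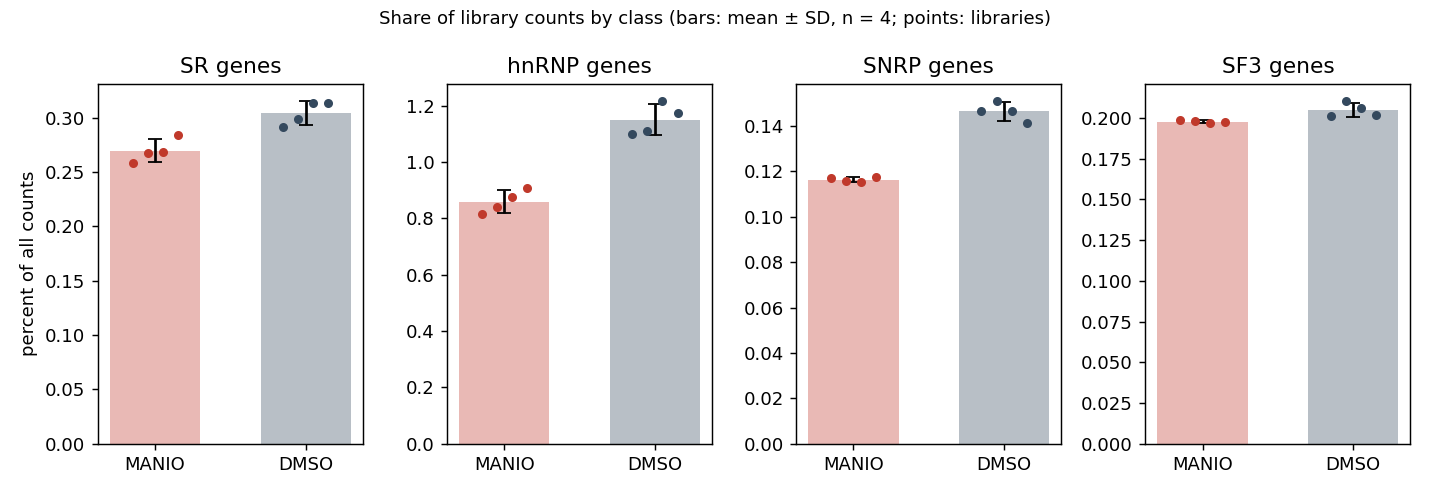
Percent of all counts in each library taken by SR, hnRNP, SNRP and SF3 genes (bars: mean ± SD; points: the 4 libraries of each group). The MANIO bars are lower in all 4 panels, by the widest margin for hnRNP genes, at 0.859% in MANIO and 1.15% in DMSO.

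Among SR genes, which encode RNA-binding proteins with serine-arginine tails, SRSF3 had the lowest fold change. SRSF3 had 327, 342, 312 and 336 CPM in the 4 MANIO libraries, against 548, 523, 512 and 485 CPM in the 4 DMSO libraries. Every MANIO library lay below every DMSO library (log2 fold change -0.65, SE 0.0543, adjusted p = 1.41e-07, edgeR quasi-likelihood test, Benjamini-Hochberg adjusted, as for each adjusted p below). SRSF3 encodes the smallest of the SR proteins, which also takes part in mRNA export, and lies at chr6:36594353-36605600 on the plus strand of GRCh38 in GENCODE 29. SRSF7 had 174, 173, 175 and 191 CPM in the 4 MANIO libraries, against 255, 246, 257 and 246 CPM in the 4 DMSO libraries. Both groups were tight and did not overlap, although MANIO replicate 4 stood above the other MANIO libraries (log2 fold change -0.49, SE 0.0505, adjusted p = 1.16e-06). SRSF7 is the close relative of SRSF3 with a zinc knuckle. SRSF2 had 294, 301, 318 and 314 CPM in the 4 MANIO libraries, against 354, 395, 434 and 430.1 CPM in the 4 DMSO libraries. The groups did not overlap, and DMSO replicate 1 was the lowest of its group (log2 fold change -0.40, SE 0.0645, adjusted p = 0.000106). SRSF2 encodes SC35, a nuclear speckle protein, and 36.7% of its exonic bases lie in exons of MFSD11. No source used here gives whether reads in that stretch were counted for either gene or set aside, so its counts are uncertain.

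Further SR genes fell by less than SRSF2. SRSF1, which encodes the founding member ASF/SF2, fell by 0.37 on the log2 scale, with 60.7% of its exonic bases in exons of other genes, 56.6% in those of AC015813.2. The others were SRSF10 (log2 fold change -0.22, groups overlapping), SRSF4 (-0.16) and SRSF9 (-0.16, with 46.2% of its exonic bases in GATC). SRSF6 did not pass (log2 fold change -0.10, adjusted p = 0.0746), although its groups did not overlap. SRSF12 had 0 to 3 counts in a library and was not tested.

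The 3 SR genes that rose were SRSF8, SRSF11 and SRSF5. SRSF8 had 89.0, 88.7, 87.7 and 86.4 CPM in the 4 MANIO libraries, against 58.4, 58.7, 59.8 and 56.8 CPM in the 4 DMSO libraries. The libraries of each group lay within a few CPM of each other, far apart from those of the other group (log2 fold change 0.59, SE 0.0484, adjusted p = 1.2e-07). SRSF8 is a single-exon gene at chr11:95067197-95071224, plus strand, derived from an SRSF2 copy. SRSF11 had 290.2, 309, 304 and 347 CPM in the 4 MANIO libraries, against 252, 231, 253 and 272 CPM in the 4 DMSO libraries. MANIO replicate 4 was highest, and the groups did not overlap (log2 fold change 0.31, SE 0.0647, adjusted p = 0.000881). SRSF5 had 261, 250.3, 277 and 290.0 CPM in the 4 MANIO libraries, against 235, 221, 249 and 242 CPM in the 4 DMSO libraries. The gap was narrow, with the lowest MANIO library just above the highest DMSO library (log2 fold change 0.19, SE 0.0584, adjusted p = 0.0129). Only SRSF8 of these 3 stayed called when a change beyond 1.2-fold was required.

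**Figure D3:**
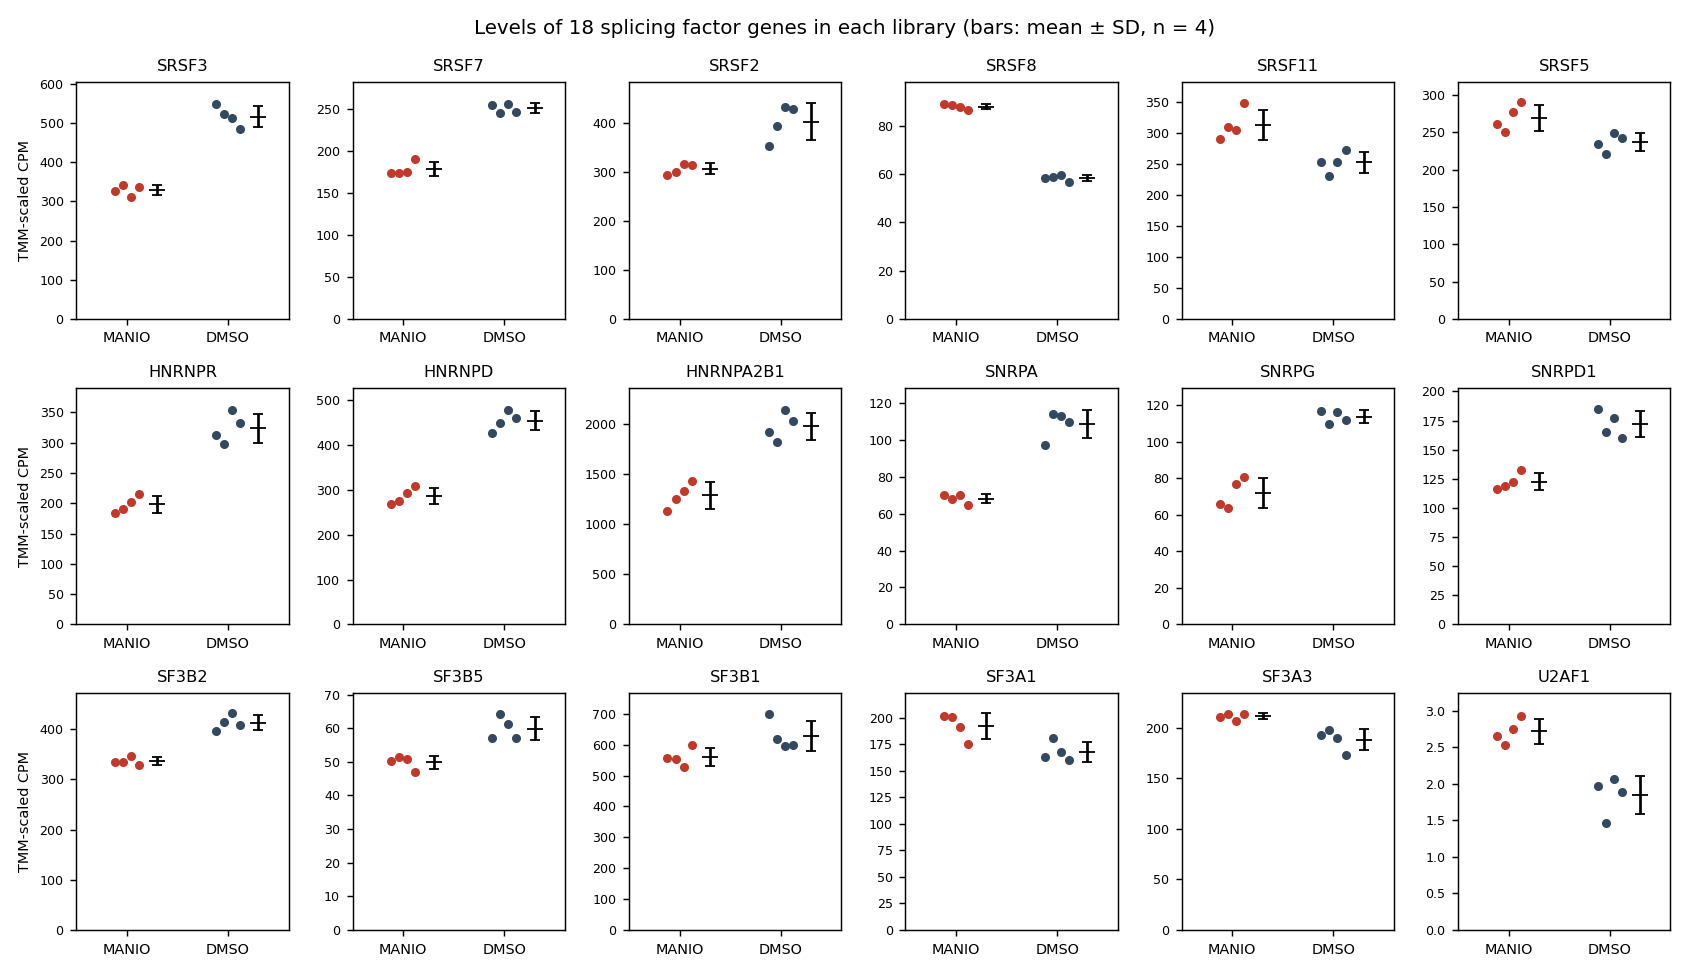
TMM-scaled CPM of 18 splicing factor genes in each MANIO and DMSO library (points: libraries; bars: mean ± SD, n = 4; axes start at 0). The groups stand apart in 16 panels and overlap for SF3B1 and SF3A1; SRSF8, SRSF11, SRSF5, SF3A1, SF3A3 and U2AF1 are the 6 with higher MANIO levels.

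The tested genes with an HNRNP symbol, whose products coat nascent transcripts, either fell or did not pass. Genes of hnRNP proteins under other symbols are not in this class. HNRNPR had 183, 191, 203 and 215 CPM in the 4 MANIO libraries, against 313, 297, 353 and 332 CPM in the 4 DMSO libraries. All MANIO libraries were below the lowest DMSO library (log2 fold change -0.71, SE 0.0648, adjusted p = 3.54e-07). HNRNPR, at chr1:23303771-23344336 on the minus strand, encodes an RNA-binding protein also studied in neuronal mRNA transport. HNRNPD had 268, 275, 294 and 309.8 CPM in the 4 MANIO libraries, against 428, 451, 478 and 461 CPM in the 4 DMSO libraries. Again the groups did not overlap (log2 fold change -0.67, SE 0.0585, adjusted p = 2.41e-07). HNRNPD encodes AUF1, which binds AU-rich elements and affects mRNA decay, and lies at chr4:82352498-82374503, minus strand. HNRNPA2B1 had 1129.7, 1249, 1339 and 1439 CPM in the 4 MANIO libraries, against 1928, 1827, 2141 and 2033 CPM in the 4 DMSO libraries. The MANIO libraries spread widely, yet all were below the DMSO libraries (log2 fold change -0.62, SE 0.075, adjusted p = 6.31e-06).

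By type, 4 of the 5 hnRNP A genes fell, and HNRNPA1L2 did not pass (log2 fold change -0.07). HNRNPA1, whose protein often silences exons, fell by 0.50 on the log2 scale, HNRNPA3 by 0.44 and HNRNPA0 by 0.27. All 3 genes of the D type fell, HNRNPDL by 0.50 and HNRNPAB by 0.20 beside HNRNPD. In the F and H type, whose proteins bind G-rich runs, HNRNPH3 fell by 0.60 and HNRNPF by 0.42, while HNRNPH1 (-0.11) and HNRNPH2 (-0.11) did not pass. Both L type genes fell, HNRNPL by 0.50 and HNRNPLL by 0.23. In the U type, HNRNPU, which encodes a nuclear matrix protein, fell by 0.39 and HNRNPUL1 by 0.37, but HNRNPUL2 did not pass (-0.08), with 44.1% of its exonic bases overlapped by HNRNPUL2-BSCL2. HNRNPC, which binds uridine tracts, fell by 0.61, HNRNPM by 0.40 and HNRNPK, a binder of C-rich sequence, by 0.36. Among all genes tested, 26.8% fell and 27.8% rose. Each type holds few genes, and the types were assembled after the values were seen.

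Per kilobase of exon, HNRNPA1 was the highest hnRNP gene, with 194 ± 2.52 CPM per kb in MANIO and 275 ± 10.5 CPM per kb in DMSO libraries. HNRNPK followed with 174 ± 4.47 CPM per kb in MANIO and 223 ± 5.81 in DMSO, and HNRNPA2B1 with 139 ± 14.2 in MANIO and 214 ± 14.6 in DMSO. HNRNPK and HNRNPA2B1 thus stood apart in MANIO and within their spread in DMSO libraries. Some of these genes share sequence with other loci, and no source used here gives how multi-mapping reads were counted. Of 50-base windows in HNRNPA1 transcripts, 23.0% occur in other genes, and the values are 53.3% for HNRNPA1L2 and 17.3% for HNRNPA3, so their counts are uncertain. HNRNPCL1 had 0 or 1 counts in a library and HNRNPCL2, HNRNPCL3 and HNRNPCL4 had none; a count of 0 allows up to 3 counts, or 0.107 CPM in the shallowest library, counting error only. Of their 50-base windows, 53.9 to 94.0% occur in other genes.

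The SNRP genes encode snRNP proteins. Of the Sm core, the ring that closes around the snRNA, 6 of the 7 tested genes fell, against 26.8% of all genes tested. SNRPG had 65.7, 63.8, 76.8 and 80.7 CPM in the 4 MANIO libraries, against 117, 110.0, 116 and 112 CPM in the 4 DMSO libraries. MANIO replicates 3 and 4 were above replicates 1 and 2, and all were well below the DMSO libraries (log2 fold change -0.67, SE 0.0711, adjusted p = 1.8e-06). SNRPD1 had 116, 119, 122 and 133 CPM in the 4 MANIO libraries, against 185, 165, 177 and 159.9 CPM in the 4 DMSO libraries. The groups did not overlap (log2 fold change -0.49, SE 0.0603, adjusted p = 7.67e-06). SNRPB fell by 0.48 on the log2 scale with a wide spread in both groups, SNRPE by 0.44, SNRPD2 by 0.41 and SNRPF by 0.26. SNRPD3 was the 1 tested Sm gene that did not pass (log2 fold change -0.02, adjusted p = 0.772). It had 135 ± 9.74 CPM in MANIO and 138 ± 7.10 CPM in DMSO libraries. Of its exonic bases, 24.6% lie in exons of other genes, 12.6% in those of GUCD1.

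Other SNRP genes encode proteins of U1 or U2 alone. SNRPA had 70.1, 68.0, 69.9 and 64.9 CPM in the 4 MANIO libraries, against 97.5, 114, 113 and 109.9 CPM in the 4 DMSO libraries. SNRPA, which encodes the A protein of U1, fell about as far as SNRPG, with no overlap of the groups (log2 fold change -0.67, SE 0.059, adjusted p = 2.41e-07). SNRPA lies at chr19:40750637-40765389 on the plus strand. SNRPC, which encodes the C protein of U1, did not pass (log2 fold change -0.12, adjusted p = 0.068). Both U2 genes fell, SNRPA1 by 0.34 and SNRPB2 by 0.15, where SNRPB2 had overlapping groups and an adjusted p of 0.0473. It lost its call in 6 of the 8 fits that left out a library. SNRPN, which encodes an Sm protein and not one of U1 or U2 alone, was listed at 0 in all 8 libraries and was not tested. SNURF, whose exons cover 23.8% of the exonic bases of SNRPN, was also listed at 0 in all 8. The 0 of SNRPN is therefore given as listed, with no statement on expression.

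In the Sm core, SNRPD2 was highest per kilobase of exon, with 137 ± 8.90 CPM per kb in MANIO and 181 ± 9.63 in DMSO libraries. SNRPB came next with 109 ± 16.3 CPM per kb in MANIO and 153 ± 22.9 in DMSO. Lowest was SNRPF, with 21.6 ± 0.385 CPM per kb in MANIO and 25.8 ± 1.27 in DMSO. Annotated exons of all isoforms enter this length, so the order also depends on the annotation.

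By complex, of the 3 SF3A genes, 2 rose and 0 fell, while of the 6 SF3B genes 3 fell and 0 rose. The 9 SF3 genes together, with 33.3% falls and 22.2% rises, were near the shares over all genes, 26.8% and 27.8%. With so few genes in each, the difference between the complexes was not tested. SF3A1 had 201, 200.4, 192 and 175 CPM in the 4 MANIO libraries, against 163, 181, 168 and 159.8 CPM in the 4 DMSO libraries. The ranges overlapped, with MANIO replicate 4 below DMSO replicate 2 (log2 fold change 0.19, SE 0.0587, adjusted p = 0.0113). SF3A3 had 211, 214, 207 and 214 CPM in the 4 MANIO libraries, against 193, 197, 189.6 and 173 CPM in the 4 DMSO libraries. All MANIO libraries were above the DMSO libraries (log2 fold change 0.17, SE 0.052, adjusted p = 0.0132), but without DMSO replicate 4 the adjusted p was 0.057. SF3A2 did not pass (log2 fold change 0.04).

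Among SF3B genes, SF3B2 had the lowest point estimate. SF3B2 had 335, 335, 347 and 329.5 CPM in the 4 MANIO libraries, against 396, 414, 432 and 409 CPM in the 4 DMSO libraries. The groups did not overlap (log2 fold change -0.30, SE 0.0491, adjusted p = 0.000128). SF3B5 had 50.2, 51.5, 50.8 and 46.9 CPM in the 4 MANIO libraries, against 57.0, 64.3, 61.3 and 57.0 CPM in the 4 DMSO libraries. All MANIO libraries were lower (log2 fold change -0.26, SE 0.0586, adjusted p = 0.00136). SF3B1 had 557, 554, 529 and 599 CPM in the 4 MANIO libraries, against 701, 617, 595 and 599 CPM in the 4 DMSO libraries. SF3B1, which encodes the branch point subunit mutated in several blood cancers, overlapped between groups, with DMSO replicate 1 highest (log2 fold change -0.17, SE 0.0626, adjusted p = 0.035). Its call was lost without MANIO replicate 1, 2 or 3 or DMSO replicate 1, at adjusted p = 0.0702 to 0.112. SF3B3 (-0.08), SF3B4 (0.06) and SF3B6 (-0.11) did not pass. None of the 9 SF3 genes was called when a change beyond 1.2-fold was required.

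The U2AF pair recognises the end of the intron, and U2AF1 was counted at a very low level. U2AF1 had 2.66, 2.53, 2.75 and 2.93 CPM in the 4 MANIO libraries, against 1.97, 1.47, 2.07 and 1.88 CPM in the 4 DMSO libraries. The groups did not overlap (log2 fold change 0.55, SE 0.136, adjusted p = 0.00304). Of the 50-base windows of U2AF1, 94.3% also occur in U2AF1L5, annotated elsewhere on chromosome 21, which had 41, 46, 59 and 28 counts in MANIO and 34, 21, 34 and 26 counts in DMSO libraries. The value of U2AF1 is therefore uncertain. U2AF2 averaged 270.2 ± 19.9 CPM in MANIO and 283 ± 32.7 CPM in DMSO libraries and did not pass (log2 fold change -0.07, adjusted p = 0.489).

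Overlapping exons and shared sequence touched several genes above. SNRPE and SNRPA1 each share 11.7% of their 50-base windows with other genes. In the 42 tested genes with under 20% of exonic bases in another gene and under 10% of windows shared, limits chosen after seeing the data, 28 fell and 5 rose. For hnRNP genes this left 15 falls and 0 rises among 17, and for SNRP genes 6 falls and 0 rises among 7. Over all genes tested, 26.8% fell and 27.8% rose, but the same limits were not applied to them. Across the 54 genes, the log2 fold change had a Spearman rho of -0.36 with average log2 CPM, 0.05 with gene span, -0.06 with exonic length and 0.21 with GC content. These are descriptions over genes of the same 8 libraries, which are not independent replicates.

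Promoter windows of the 5 genes with the lowest fold changes and of SRSF8, with the highest, are printed to show the letters around their starts. RefSeq windows on GRCh38.p14, 250 bases before to 50 after a start, matched 55 of the 60 genes and 50 of those tested. SRSF2, HNRNPA1, SF3B3, SNRPD1 and HNRNPCL3 had no entry. Each sequence runs 5′ to 3′ on the strand of the gene, and capitals mark an E-box, a CHR element, a CCAAT box, a GC box or an ETS core, read on either strand and spelled out with the counts given after the sequences. The windows are chr6:36594112-36594411 on the plus strand for SRSF3, chr1:23344235-23344534 on the minus strand for HNRNPR, and chr4:82373942-82374241 on the minus strand for HNRNPD. They are chr19:40750953-40751252 on the plus strand for SNRPA, chr2:70293409-70293708 on the minus strand for SNRPG and, for SRSF8, which rose, chr11:95066627-95066926 on the plus strand. In GENCODE 29, SNRPG spans chr2:70281362-70293771, so its window lies wholly inside the gene, downstream of the annotated start. The same holds for HNRNPD and SNRPA. The SRSF8 window ends before the annotated gene start at 95067197. For these 4 genes the window may therefore miss the main promoter.
SRSF3: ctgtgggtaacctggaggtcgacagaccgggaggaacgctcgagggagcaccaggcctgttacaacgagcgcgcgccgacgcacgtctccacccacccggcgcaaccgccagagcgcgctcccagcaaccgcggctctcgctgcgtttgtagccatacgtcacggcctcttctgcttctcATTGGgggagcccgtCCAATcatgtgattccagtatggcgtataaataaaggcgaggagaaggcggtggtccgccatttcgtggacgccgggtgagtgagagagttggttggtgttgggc
HNRNPR: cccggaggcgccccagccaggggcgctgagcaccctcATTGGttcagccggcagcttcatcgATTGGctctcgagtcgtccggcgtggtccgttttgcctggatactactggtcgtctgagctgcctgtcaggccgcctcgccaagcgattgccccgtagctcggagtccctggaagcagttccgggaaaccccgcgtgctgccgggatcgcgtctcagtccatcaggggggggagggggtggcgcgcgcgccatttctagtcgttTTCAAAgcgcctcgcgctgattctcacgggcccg
HNRNPD: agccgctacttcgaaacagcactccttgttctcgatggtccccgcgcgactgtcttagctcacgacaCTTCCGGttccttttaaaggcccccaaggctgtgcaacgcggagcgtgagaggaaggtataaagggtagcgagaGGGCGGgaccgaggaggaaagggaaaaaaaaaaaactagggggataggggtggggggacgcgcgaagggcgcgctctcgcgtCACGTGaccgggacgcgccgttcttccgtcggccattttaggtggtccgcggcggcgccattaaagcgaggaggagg
SNRPA: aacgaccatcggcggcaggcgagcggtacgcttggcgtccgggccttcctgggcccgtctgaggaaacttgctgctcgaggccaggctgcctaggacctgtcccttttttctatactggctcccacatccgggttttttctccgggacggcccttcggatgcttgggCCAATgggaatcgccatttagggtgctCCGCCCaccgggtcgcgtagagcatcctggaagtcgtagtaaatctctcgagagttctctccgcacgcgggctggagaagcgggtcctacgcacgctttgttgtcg
SNRPG: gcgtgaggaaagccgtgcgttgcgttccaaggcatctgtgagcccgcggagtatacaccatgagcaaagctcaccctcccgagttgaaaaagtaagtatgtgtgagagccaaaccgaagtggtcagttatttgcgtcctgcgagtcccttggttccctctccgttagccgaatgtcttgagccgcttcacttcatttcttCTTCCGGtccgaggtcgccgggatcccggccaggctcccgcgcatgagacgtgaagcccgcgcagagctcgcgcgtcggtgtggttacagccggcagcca
SRSF8: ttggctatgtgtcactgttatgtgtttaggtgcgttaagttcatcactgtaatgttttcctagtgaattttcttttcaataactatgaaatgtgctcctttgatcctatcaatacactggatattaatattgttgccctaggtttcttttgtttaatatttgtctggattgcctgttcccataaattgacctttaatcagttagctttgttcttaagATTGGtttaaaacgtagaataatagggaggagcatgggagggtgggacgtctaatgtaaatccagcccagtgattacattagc

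SRSF3 and HNRNPR each carried a CCAAT box at 2 places, HNRNPR also 1 CHR element, and SNRPA carried 1 CCAAT box and 1 GC box. The HNRNPD window held an E-box, a GC box and an ETS core once each, and the SNRPG window held 1 ETS core and no CCAAT box. The SRSF8 window was the least GC-rich of those shown, at 36.0% GC, and held 1 CCAAT box. Over the family, the CCAAT box stood in 17 of 33 promoters of genes that fell, 1 of 6 of genes that rose and 2 of 11 of genes that did not pass, against 34.6% of all 35116 promoters. The ETS core, searched as CCGGAAG, stood in 11 of 33 falls, 3 of 6 rises and 5 of 11 not called, against 10.3% of all promoters. The E-box, searched as CACGTG, stood in 7 of 33 falls, 0 of 6 rises and 1 of 11 not called, against 7.26% of all. The GC box, searched as GGGCGG, stood in 19 of 33 falls, 4 of 6 rises and 10 of 11 not called, against 45.0% of all promoters. The CHR element of cell cycle genes, searched as TTTGAA, stood in 1 of 33 falls, 0 of 6 rises and 1 of 11 not called, against 15.2% of all promoters. The p53 response half-site stood in 2 of 33 falls, 0 of 6 rises and 1 of 11 not called, against 6.63%. Matches were counted on both strands and may overlap, and a match or its lack says nothing of binding by a factor. Each gene entered these counts with the first window listed for it, which may miss the main promoter in genes not printed too. The SRSF5 window starts at 69766892, inside a gene annotated from 69726900, and the SRSF11 window at 70221130, inside a gene from 70205682. The HNRNPA1L2 window ends at 52617574, before the annotated start at 52642425. The 35116 promoters are unlike the family's: they were not limited to 1 window for each gene or to genes tested here. The family's promoters were limited in both ways. The shares therefore do not show what sets this family apart from other expressed genes.

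Other genes of the splicing pathway were counted by list, as the plot of calls by list shows, and are read against the 26.8% of all genes that fell and the 27.8% that rose. Of 34 further U1, U2, U5 and U4/U6 snRNP proteins, 13 fell and 3 rose, with a median log2 fold change of -0.07. USP39, required for tri-snRNP assembly, fell by 0.49 on the log2 scale, PPIH by 0.58 (with 38.9% of exonic sequence inside other genes) and HTATSF1 by 0.41. Of 12 LSm genes, whose proteins bind U6 snRNA or decaying mRNA, 5 fell and 0 rose, with a median of -0.13. LSM6 fell by 0.53, LSM5 by 0.36 and LSM2 by 0.22. Of 36 genes of the catalytic-stage spliceosome, 11 fell and 4 rose, with a median of -0.08; the share that fell, 30.6%, was near the 26.8% of all genes. CWC27 fell by 0.46, PPIL1 by 0.39 and CTNNBL1 by 0.36.

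**Figure D4:**
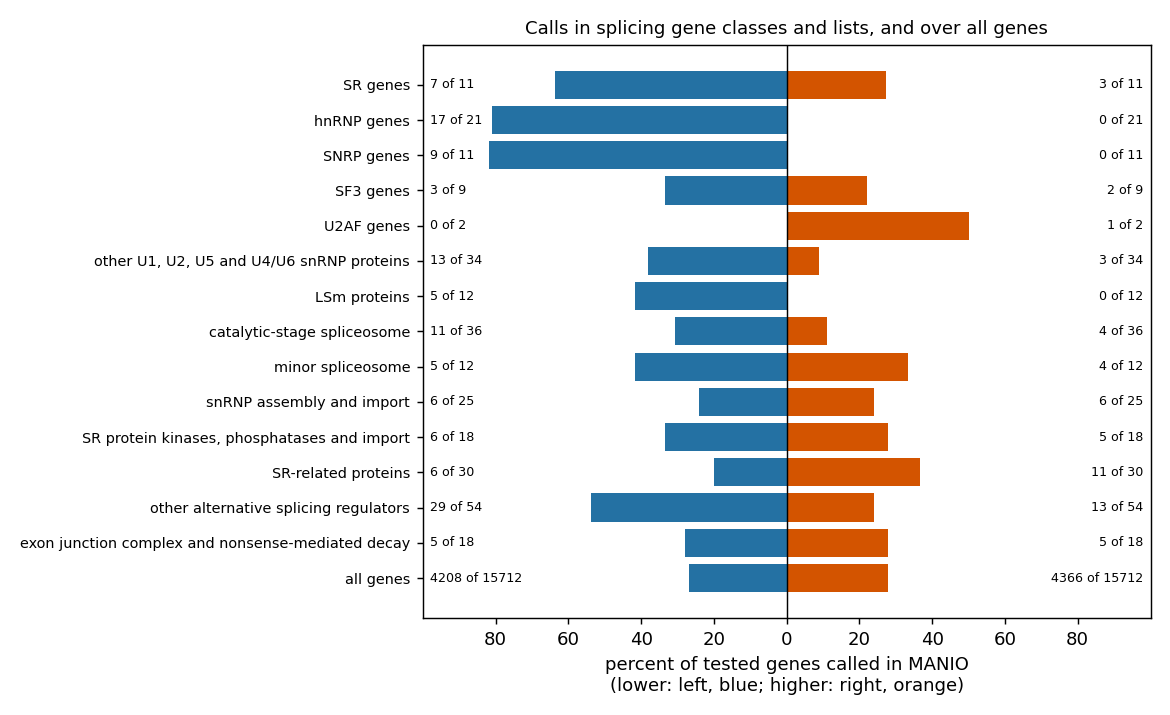
Percent of tested genes called lower (left) and higher (right) in MANIO against DMSO, by class and list, with the numbers of genes at the edges. The hnRNP genes (17 of 21) and SNRP genes (9 of 11) had the longest bars to the left, and all genes are in the bottom row.

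Over all genes, 26.8% fell and 27.8% rose. Of 12 minor spliceosome genes, which serve a rare class of introns, 5 fell and 4 rose, with a median of -0.08. ZCRB1 fell by 0.51, ZMAT5 by 0.48 and SNRNP35 by 0.44, the last with 40.1% of exonic sequence overlapped. Of 25 snRNP assembly and import genes, 6 fell and 6 rose, 24% each way and no more than among all genes, with a median of 0.02. TGS1, the enzyme that completes the snRNA cap, rose (log2 fold change 0.38), as did USB1 (0.36), which trims U6 snRNA, while GEMIN8 of the SMN complex fell by 0.49. Of 18 genes listed for kinases, phosphatases and import of SR proteins, 6 fell and 5 rose, with a median of -0.09. The list includes genes with wider roles. The SR protein kinase gene CLK3 rose (log2 fold change 0.45). HIPK2, whose kinase is not specific to SR proteins, fell by 0.32, and PPP1R8, a phosphatase regulator, by 0.34.

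Of 30 SR-related genes, 11 rose (36.7%, against 27.8% of all genes) and 6 fell (20%, against 26.8%), with a median of 0.08. CCNL2, a cyclin of the splicing speckles, rose (log2 fold change 0.57), as did DDX39B (0.52, with 30.8% of its exonic bases overlapped), an export and splicing helicase, whereas RSRC1 fell by 0.85. Of 54 other alternative splicing regulators, 29 fell and 13 rose, with a median of -0.18. RBMX fell by 0.54 and KHDRBS1, which encodes SAM68, by 0.46, while PCBP4 rose (log2 fold change 0.72). Of 18 genes of the exon junction complex and nonsense-mediated decay, 5 fell and 5 rose, 27.8% each way and close to all genes, with a median of 0.04. SMG1, the kinase of that decay, rose (log2 fold change 0.42), as did UPF3A (0.43), while NBAS fell by 0.57. SMG1 has near-identical copies, so its count is uncertain. Each gene named from these lists had groups that did not overlap.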

How the data were processed

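RNA was measured in 4 MANIO and 4 DMSO samples of HCT116 p53+/+ cells, with TruSeq libraries, per the labels' protocols, from a kit that does not mark strand. The authors deposited raw read counts for 58302 genes, as the whole-number values show. FastQC 1.3, STAR 2.5.3a, HTSeq, DESeq2 and GRCh38 appear in the submitters' processing notes, without roles. No source used here gives the annotation release, strand setting or multi-mapping treatment behind the counts. Nothing in the labels says whether the replicates came from separate cultures beyond calling them biological, so p-values measure the spread between these samples. Replicates of a group differed by 3.38 to 22.2 times the counting noise in a chi-square test, and each was kept as its own sample. The largest values, 19 to 22.2, were those of the pairs with DMSO replicate 1. Other DMSO pairs had 3.38 to 9.41, and MANIO pairs 4.04 to 13.5.

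In R 4.3.3, genes kept by filterByExpr (15712) were TMM-scaled and tested with the quasi-likelihood test of edgeR 4.0.16 (robust, group alone), with Benjamini-Hochberg adjustment over all of them and a threshold of 0.05. Levels are TMM-scaled CPM with SD over 4 libraries. The scripts were tested on simulated data. Positions, exonic lengths, overlaps on either strand and shared 50-base transcript windows came from GENCODE 29 on GRCh38. Promoter sequences came from RefSeq, on GRCh38.p14.

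The genes given in full are, in the SR, hnRNP and SNRP families, the 3 largest called changes each way, and in SF3 and U2AF the called genes up to 3 each way. From each other list, the 3 with the smallest p are named. The genes and lists were chosen with earlier results of these data known. The alternatives were DESeq2 1.42.0, other scalings, no filter, a replicate block, a 1.2-fold limit (glmTreat) and leaving out each library.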

Additional observations from a re-analysis of the deposited data

Results flagged for a closer look

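SRSF7 was measured at 190.9 CPM in MANIO replicate 4, apart from the other 3 MANIO libraries, which lay between 173 and 175 CPM. The gap took 0.891 of the range of the group, above Dixon's critical value for 4 samples. That library was still below every DMSO library. The mitochondrial share of counts in DMSO replicate 1, 7.48%, stood apart from the other DMSO libraries in the same way, with a gap of 0.851 of the range. Without that library, 35 of the splicing factor genes fell and 6 rose. A total of 52 groups were looked at, and chance flags about 1 in 20.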

How the results depend on the processing

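The counts of 36 falls and 6 rises among the splicing factor genes, and of 8574 called genes in all, moved by over 1.5 times only when a change beyond 1.2-fold was required (glmTreat), which gave 22 falls, 2 rises and 4132 called genes. That limit kept 24 of the 42 calls. Leaving out a library gave 32 to 39 falls, 5 or 6 rises and 7818 to 8622 called genes; the calls lost were among SNRPB2, SF3B1, SRSF10, HNRNPAB and SF3A3. DESeq2 gave 37 falls and 6 rises, upper-quartile scaling 38 and 6, and DESeq2's size factors or no filter on low counts 36 and 6. To look for pairing, the mean of each group was taken from the log2 CPM of every gene, and the remaining deviations were correlated between groups. These deviations correlated at 0.0385 to 0.163 for same-numbered samples, and only replicate 2 correlated best with its own number. The numbers were therefore not taken to pair samples. A replicate block gave 37 falls, 6 rises and 8845 called genes. No called splicing factor gene changed sign in any of these settings. Of the 252 values of the 18 genes given in full, 240 kept their call and 12 lost it. Low counts limit the precision for U2AF1, with 42 to 87 in a library, and HNRNPA1L2, with 85 to 137.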
